A study of Mus musculus with 4 samples.

Results

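The genes of the amino acid stress response and of the unfolded protein response were followed over 4 microarrays of mouse embryonic stem cells. They are 37 genes taken by symbol, 27 in an amino acid arm of ATF4 and its reported targets and 10 in an endoplasmic reticulum chaperone arm. Of the 37, 35 had a probe set paired with them alone, out of 22180 genes with such a probe set. All cells lacked Prdm14, a gene of the naive pluripotent and germ cell states that encodes a zinc finger protein, and grew on STO fibroblast feeders in medium with 2 kinase inhibitors and leukemia inhibitory factor. The control received an empty vector. The other groups expressed the mouse protein PRDM14, its sea urchin ortholog, or the sea urchin ortholog and, beside it, the co-repressor CBFA2T of the same animal. Each group was 1 array of total RNA, all on strip 2, so no value has a replicate error, no test was made, and a group name below means the array labelled with it. The sources used here do not give the vector's promoter, the number of clones or the culture time.

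ATF4 is a transcription factor whose mRNA is translated better when the initiation factor eIF2 is phosphorylated, for instance when amino acids run short. It raises the genes of amino acid synthesis and import. Misfolded protein in the endoplasmic reticulum activates the same eIF2 branch through PERK, and also IRE1 with its target XBP1 and ATF6, which raise chaperone genes. ATF4 dimers with C/EBP proteins bind composite C/EBP-ATF sites, and ATF6 with NF-Y binds the endoplasmic reticulum stress response element.

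The promoters of the 2 arms differed in which motifs they held. Windows of 300 bases, 250 before to 50 after the RefSeq start (GRCm38.p6), were searched on both strands with 4 motifs. The stress response element (CCAAT, any 9 bases, CCACG) was found in 0.119% of 32851 windows of this length, in 4 of the 10 chaperone genes and in 0 of the 23 amino acid arm genes with a window. The C/EBP-ATF response element (TGATGNAA, with N any base) was found in 3.97% of all windows. It was present in 8 of the 23 amino acid arm genes, namely Asns, Atf3, Chac1, Nupr1, Pycr1, Slc7a11, Trib3 and Vldlr, and in 1 of the 10 chaperone genes, Herpud1. The other motifs, TGACGTCA (1.79% of all windows) and TGACGTGG (0.676%), were in no member's window. No window was read for Cth, Slc7a3, Slc7a5 and Eif4ebp1.

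Shown first are the 4 chaperone gene windows that hold the stress response element, in capitals, on the gene's strand. They are Hspa5 (chr2:34771840-34772139, plus strand), Hsp90b1 (chr10:86705395-86705694, minus strand, with 2 matches), Pdia6 (chr12:17266339-17266638, plus strand) and Calr (chr8:84846882-84847181, minus strand). Hspa5 and Calr were added after their values had been seen.
Hspa5: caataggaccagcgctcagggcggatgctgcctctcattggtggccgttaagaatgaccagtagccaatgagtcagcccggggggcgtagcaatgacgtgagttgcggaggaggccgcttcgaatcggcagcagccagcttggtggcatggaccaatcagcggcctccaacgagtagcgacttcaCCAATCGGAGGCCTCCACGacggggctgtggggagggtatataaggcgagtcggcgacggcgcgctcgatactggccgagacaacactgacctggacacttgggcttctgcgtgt
Hsp90b1: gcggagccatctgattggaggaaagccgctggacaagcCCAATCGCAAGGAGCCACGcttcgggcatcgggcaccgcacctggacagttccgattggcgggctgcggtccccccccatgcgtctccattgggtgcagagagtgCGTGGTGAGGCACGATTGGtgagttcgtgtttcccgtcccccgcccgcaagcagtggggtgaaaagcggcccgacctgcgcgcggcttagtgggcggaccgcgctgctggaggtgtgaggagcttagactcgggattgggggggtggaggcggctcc
Pdia6: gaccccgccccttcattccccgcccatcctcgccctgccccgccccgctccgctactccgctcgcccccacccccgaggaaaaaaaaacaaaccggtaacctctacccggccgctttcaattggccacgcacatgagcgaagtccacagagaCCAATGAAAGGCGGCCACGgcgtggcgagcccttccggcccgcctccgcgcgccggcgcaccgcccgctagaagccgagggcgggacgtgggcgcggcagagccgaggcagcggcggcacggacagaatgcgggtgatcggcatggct
Calr: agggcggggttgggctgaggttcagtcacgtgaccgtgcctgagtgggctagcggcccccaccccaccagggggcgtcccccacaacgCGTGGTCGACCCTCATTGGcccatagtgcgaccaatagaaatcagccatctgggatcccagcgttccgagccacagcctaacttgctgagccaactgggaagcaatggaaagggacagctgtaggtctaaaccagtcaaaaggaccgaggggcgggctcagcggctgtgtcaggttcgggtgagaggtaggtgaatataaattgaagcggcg
The first base of the match lay at -65 from the start in Hspa5, at -212 and -107 in Hsp90b1, at -98 in Pdia6 and at -162 in Calr. In Calr and in the second match of Hsp90b1 the element is on the opposite strand, so that it reads CGTGG, 9 bases, ATTGG here.

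Asns (chr6:7693160-7693459, minus strand) and Trib3 (chr2:152344011-152344310, minus strand) are shown for the amino acid arm, with the C/EBP-ATF response element in capitals. They were chosen after their values had been seen.
Asns: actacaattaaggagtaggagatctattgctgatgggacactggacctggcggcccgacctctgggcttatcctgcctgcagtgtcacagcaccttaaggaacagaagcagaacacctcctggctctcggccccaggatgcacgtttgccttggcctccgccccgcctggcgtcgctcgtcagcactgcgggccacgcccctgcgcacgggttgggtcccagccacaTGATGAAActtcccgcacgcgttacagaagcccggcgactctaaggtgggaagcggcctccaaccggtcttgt
Trib3: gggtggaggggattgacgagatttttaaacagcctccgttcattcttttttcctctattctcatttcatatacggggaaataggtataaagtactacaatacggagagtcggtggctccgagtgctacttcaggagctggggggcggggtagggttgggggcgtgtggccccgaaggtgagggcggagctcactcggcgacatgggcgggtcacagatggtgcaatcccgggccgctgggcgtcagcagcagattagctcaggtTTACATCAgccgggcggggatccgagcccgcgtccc
The match begins at -23 in Asns, and at 15 bases into the transcript in Trib3, where it is on the opposite strand. Cth, Phgdh, Slc7a1 and Slc7a3, with the arm's largest differences from the empty vector, were the genes set to be shown. Cth and Slc7a3 had no window, and the windows of Phgdh and Slc7a1 held none of the 4 motifs and are not printed. A match is a description of the letters, not of a bound site.

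A gene passed the filter on dim genes when its highest array reached 4.84, the median of all named probe sets, and 12042 genes did. In the amino acid arm 22 of 26 measured genes passed, and in the chaperone arm 7 of 9. Ddit3, Slc7a11, Slc7a3, Vldlr, Dnajb9 and Edem1 were below it on all 4 arrays. All counts and medians of the arms below are over the 26 and 9 measured genes, whether they passed or not. Pycr1, an enzyme of proline synthesis, had no probe set of its own, and Pdia4, a disulfide isomerase, only one shared with Mir704.

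The arrays were close to one another as a whole, with Pearson's r between 0.986 and 0.989 over all probe sets. The Prdm14 probe set lay between 5.53 and 5.77 and did not separate the groups (5.71 with the empty vector and 5.57 with mouse PRDM14). The position of its probes relative to the deletion is not known here, and it does not check the labels. All 12 embryonic stem cell markers were at or above the filter value of 4.84 on every array. Of the 16 fibroblast feeder markers measured, 12 reached it on every array, with summed values of 83.5 to 83.7. Among those under it were Lum and Dcn, at 2.76 to 3.64, named after their values had been seen. Of the 11 markers of 2-cell-like cells measured, 7 reached it with CBFA2T and 1 on each other array, with a summed value of 61.1 against 40.9 to 41.8, and their part in the results below was not tested. In such bulk RNA, fewer cells of a type and less RNA per cell cannot be told apart.

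The differences in both arms were small, and 1 member was 2-fold apart in 1 comparison. Cth, with sea urchin PRDM14 and CBFA2T against the empty vector, was that member, where 0.208% of all genes were called. No member was 2-fold apart with mouse PRDM14 or sea urchin PRDM14 against the empty vector, where 0.083% and 0.0332% of all genes were, or with CBFA2T against sea urchin PRDM14 alone, where 0.183% were. Against mouse PRDM14, 0 members were called on the sea urchin PRDM14 array (0.0581% of all genes) and 0 with CBFA2T added (0.183%). The pattern described next is one of many small differences on single arrays. Over the 4 arrays a gene of the amino acid arm spanned a median of 0.22 on the log2 scale, and one of the chaperone arm 0.34, beside 0.19 for all genes past the filter. A span of at least 0.5 was seen in 6 of 26 amino acid arm genes (23.1%), in 0 of 9 chaperone genes and in 3.4% of all genes.

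The arms stood at different places across the arrays. Of the 26 amino acid arm genes, 14 (53.8%) were highest with mouse PRDM14 and 9 (34.6%) with the empty vector, and 12 (46.2%) were lowest with CBFA2T and 8 (30.8%) with sea urchin PRDM14. Over all genes past the filter, each array was the highest for 23.2% to 27.3% and the lowest for 22.4% to 27.9%. Of the 9 chaperone arm genes, 6 (66.7%) were highest with sea urchin PRDM14 alone.

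**Figure D1:**
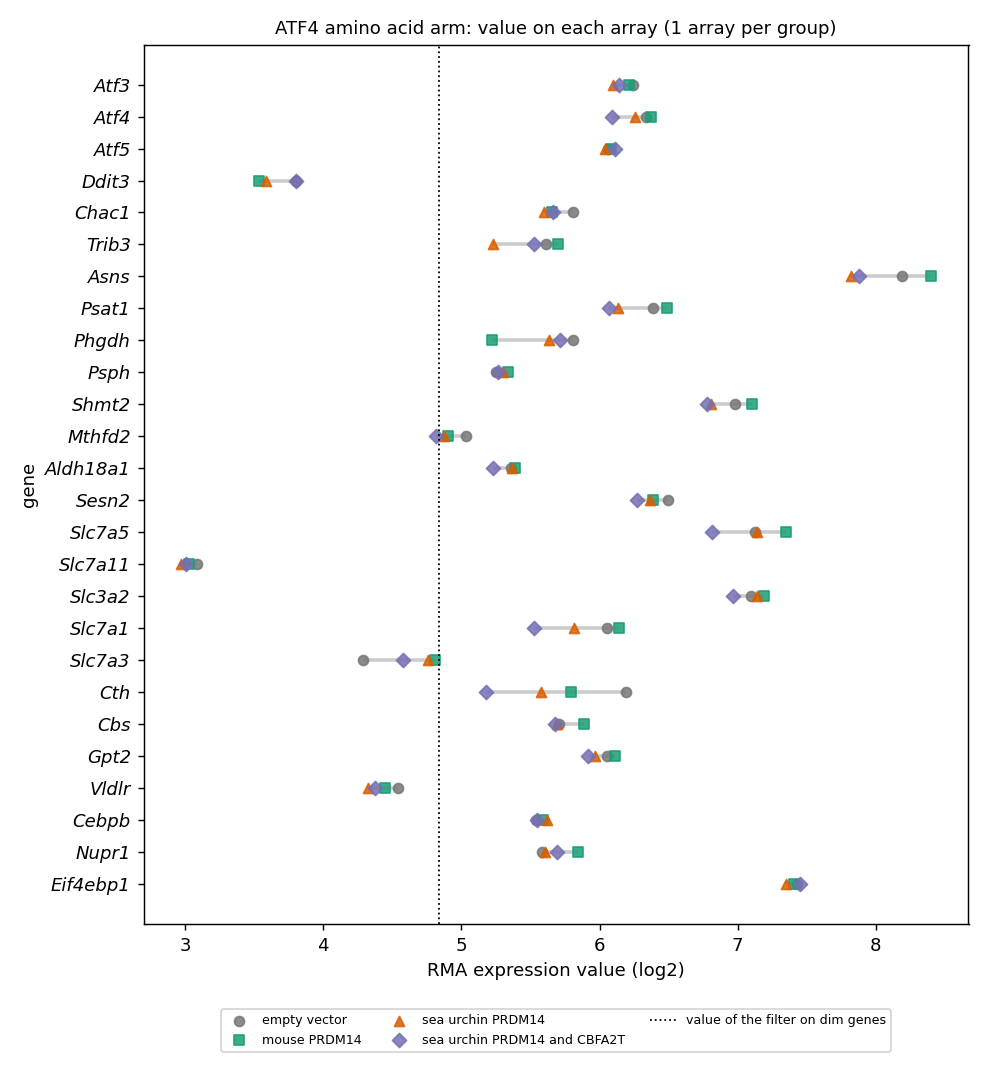
RMA expression values (log2, x axis) of the 26 measured genes of the ATF4 amino acid arm on each of 4 arrays, 1 marker per array; the grey line joins the lowest and highest array and the dotted line is the filter value of 4.84. Cth has the widest span, 1.02, and Atf5 the narrowest, 0.071.

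Cystathionine gamma-lyase, encoded by Cth, makes cysteine in the last step of transsulfuration. Cth was at 6.19 with the empty vector, 5.79 with mouse PRDM14, 5.57 with sea urchin PRDM14 alone and 5.18 with CBFA2T added. Each array with a PRDM14 lay below the empty vector, and the array with CBFA2T lay lowest. The differences from the empty vector were -0.40, -0.62 and -1.02 (2.02-fold lower). Only 5 of the 12042 genes past the filter had a lower difference in the last of these, 15 with sea urchin PRDM14 alone and 107 with mouse PRDM14. With CBFA2T against sea urchin PRDM14 alone the difference was -0.40. Cbs, which encodes the enzyme of the step before, did not share this order, with 5.71, 5.89, 5.69 and 5.68 on the same 4 arrays.

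Serine is made from a glycolytic intermediate by Phgdh, Psat1 and Psph in turn. Phgdh was at 5.81 with the empty vector, 5.22 with mouse PRDM14, 5.64 with sea urchin PRDM14 alone and 5.71 with CBFA2T added. The mouse PRDM14 array alone stood apart, 0.41 below the next array, and 20 of the genes past the filter had a lower difference than its -0.58 from the empty vector. That is 1.498-fold, just inside a 1.5-fold threshold, at which 0.457% of all genes were called and 0 members. Psat1 was highest on that same array, at 6.49, with 6.38 for the empty vector, 6.13 for sea urchin PRDM14 and 6.07 with CBFA2T. With mouse PRDM14 the first enzyme of the pathway was thus lowest and the second highest. The Psat1 difference from the empty vector was 0.10 there, and 2597 genes past the filter had a higher one. Psph spanned 0.082 over the 4 arrays.

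Asns encodes asparagine synthetase, a commonly used reporter of ATF4 activity. Asns was at 8.19 with the empty vector, 8.40 with mouse PRDM14, 7.82 with sea urchin PRDM14 alone and 7.87 with CBFA2T added. Both sea urchin arrays lay below the other arrays. Against the empty vector the differences were -0.37 for sea urchin PRDM14 and -0.31 with CBFA2T added, and against mouse PRDM14 they were -0.58 and -0.52. Of the genes past the filter, 27 and 54 had a lower difference in the comparisons with mouse PRDM14.

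Among the one-carbon enzymes, mitochondrial Shmt2, which splits serine into glycine, was likewise highest with mouse PRDM14 and lower on both sea urchin arrays, with 6.98, 7.10, 6.80 and 6.78 for the empty vector, mouse PRDM14, sea urchin PRDM14 and CBFA2T. Mthfd2, which oxidises the folate unit that Shmt2 makes, lay within 0.21, from 5.03 with the empty vector down to 4.82 with CBFA2T, just under the filter value. Aldh18a1, the entry enzyme of proline synthesis, spanned 0.16 and the alanine transaminase gene Gpt2 0.19, each lowest with CBFA2T.

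Of the amino acid carriers of the arm, Slc7a1, Slc7a5 and Slc3a2 were lowest with CBFA2T, and Slc7a3 and Slc7a11 were not. Slc7a1, a carrier of arginine and lysine, was at 6.06 with the empty vector, 6.14 with mouse PRDM14, 5.82 with sea urchin PRDM14 alone and 5.52 with CBFA2T added. Its differences from the empty vector were 0.08, -0.24 and -0.53, and 50 genes past the filter lay lower than the last of these. Slc7a5, a carrier of large neutral amino acids, was lower on 1 array only, with 7.12, 7.35 and 7.14 on the first 3 arrays and 6.82 with CBFA2T. Slc3a2 encodes the shared heavy chain of the Slc7a5 and Slc7a11 carriers, and lay at 7.10, 7.19, 7.14 and 6.96. CBFA2T against sea urchin PRDM14 alone thus gave -0.29 for Slc7a1, -0.32 for Slc7a5 and -0.17 for Slc3a2. Slc7a3, another carrier of basic amino acids, went the other way from its relative Slc7a1. It was at 4.29 with the empty vector and at 4.81, 4.76 and 4.58 with mouse PRDM14, sea urchin PRDM14 and CBFA2T, all under the filter value. Its differences from the empty vector, 0.53, 0.47 and 0.29, were the highest of the arm in all 3 comparisons. Slc7a11, the cystine carrier, was dim at 2.97 to 3.08, and its second probe set lay between 2.79 and 3.06.

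Among the regulators, Atf4 and Ddit3 spanned more than the arm's median of 0.22 and the others less. Atf4 was at 6.33 with the empty vector, 6.37 with mouse PRDM14, 6.26 with sea urchin PRDM14 alone and 6.09 with CBFA2T added, a difference of -0.24 from the empty vector for the last. ATF4 is controlled mainly by translation, which an array does not measure. Atf5, a related factor, spanned 0.071, Cebpb, which encodes a dimer partner of ATF4, 0.08, and Atf3, a stress-induced factor, 0.14. Ddit3, the gene of the factor CHOP, was dim at 3.54 to 3.81.

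Trib3 encodes a pseudokinase that restrains ATF4 output. Trib3 was at 5.61 with the empty vector, 5.70 with mouse PRDM14, 5.23 with sea urchin PRDM14 alone and 5.53 with CBFA2T added. The sea urchin PRDM14 array alone stood apart, lower than every other by 0.30 or more. Its difference from the empty vector was -0.38, and 101 genes past the filter lay lower. Adding CBFA2T gave 0.30 against sea urchin PRDM14 alone, the highest difference of the arm in that comparison.

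The remaining targets lay close together. Chac1, which degrades glutathione, was 0.15 to 0.21 below the empty vector on the other 3 arrays. Sesn2, which senses leucine for the growth kinase mTORC1, was 0.10 to 0.22 below, and Vldlr, a lipoprotein receptor gene under the filter value, 0.09 to 0.22 below. Nupr1, a stress-induced chromatin protein gene, was highest with mouse PRDM14, at 5.85 against 5.58 to 5.69. Eif4ebp1, which encodes an inhibitor of cap-dependent translation, spanned 0.10.

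Over the arm as a whole, most amino acid genes lay below the empty vector on both sea urchin arrays. The differences from the empty vector were below 0 for 19 of 26 with sea urchin PRDM14 (73.1%, median -0.12) and for 20 of 26 with CBFA2T added (76.9%, median -0.13). Over all genes past the filter 48.4% were below 0 in each, with medians of 0.006 and 0.005. With mouse PRDM14, 10 of 26 were below 0 (38.5%, median 0.05), beside 51.5% of all genes and a median of -0.005. Below 0 on both sea urchin arrays were 17 of 26 genes (65.4%), beside 32.7% of all genes. The 4 that were above 0 on both were Psph, Slc7a3, Cebpb and Nupr1. These comparisons share the empty vector array and its chance values. The members were chosen with earlier results of these data known, so the counts beside all genes are a description only. The 12 embryonic stem cell markers lay in the same directions: 9 were above 0 with mouse PRDM14 (median 0.11), and 10 and 9 were below 0 on the sea urchin arrays (medians -0.06 and -0.04). Their summed value was 81.3 with the empty vector, 82.5 with mouse PRDM14, and 80.2 and 80.5 on the sea urchin arrays, and their part in the result was not tested.

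Set against mouse PRDM14, 23 of 26 amino acid arm genes were below 0 with sea urchin PRDM14 (median -0.09) and 21 of 26 with CBFA2T added (median -0.16). Over all genes past the filter 46.5% and 47.0% were below 0, with medians of 0.012 and 0.010. The medians of the 12 embryonic stem cell markers were -0.19 and -0.15. Phgdh was the clearest exception, at 0.41 and 0.49. These values share the mouse PRDM14 array, on which the arm was mostly highest. At 1.5-fold, 2 members were called with CBFA2T against mouse PRDM14, Cth (-0.62) and Slc7a1 (-0.62), where 0.739% of all genes were, and 0 with sea urchin PRDM14 alone, where 0.515% were.

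Most of these differences were inside the range of ordinary genes. In the comparison of sea urchin PRDM14 with the empty vector, the 5th and 95th percentiles of all genes past the filter were -0.23 and 0.26, and the SD 0.16. Below the 5th percentile were 5 of 26 amino acid arm genes, Trib3, Asns, Psat1, Slc7a1 and Cth, and above the 95th was Slc7a3. With CBFA2T added the limits were -0.25 and 0.29 and the SD 0.20, and Asns, Psat1, Slc7a5, Slc7a1 and Cth lay below and Slc7a3 above. At 1.5-fold, Cth was the only member called in each of these comparisons, where 0.498% and 0.822% of all genes were called.

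**Figure D2:**
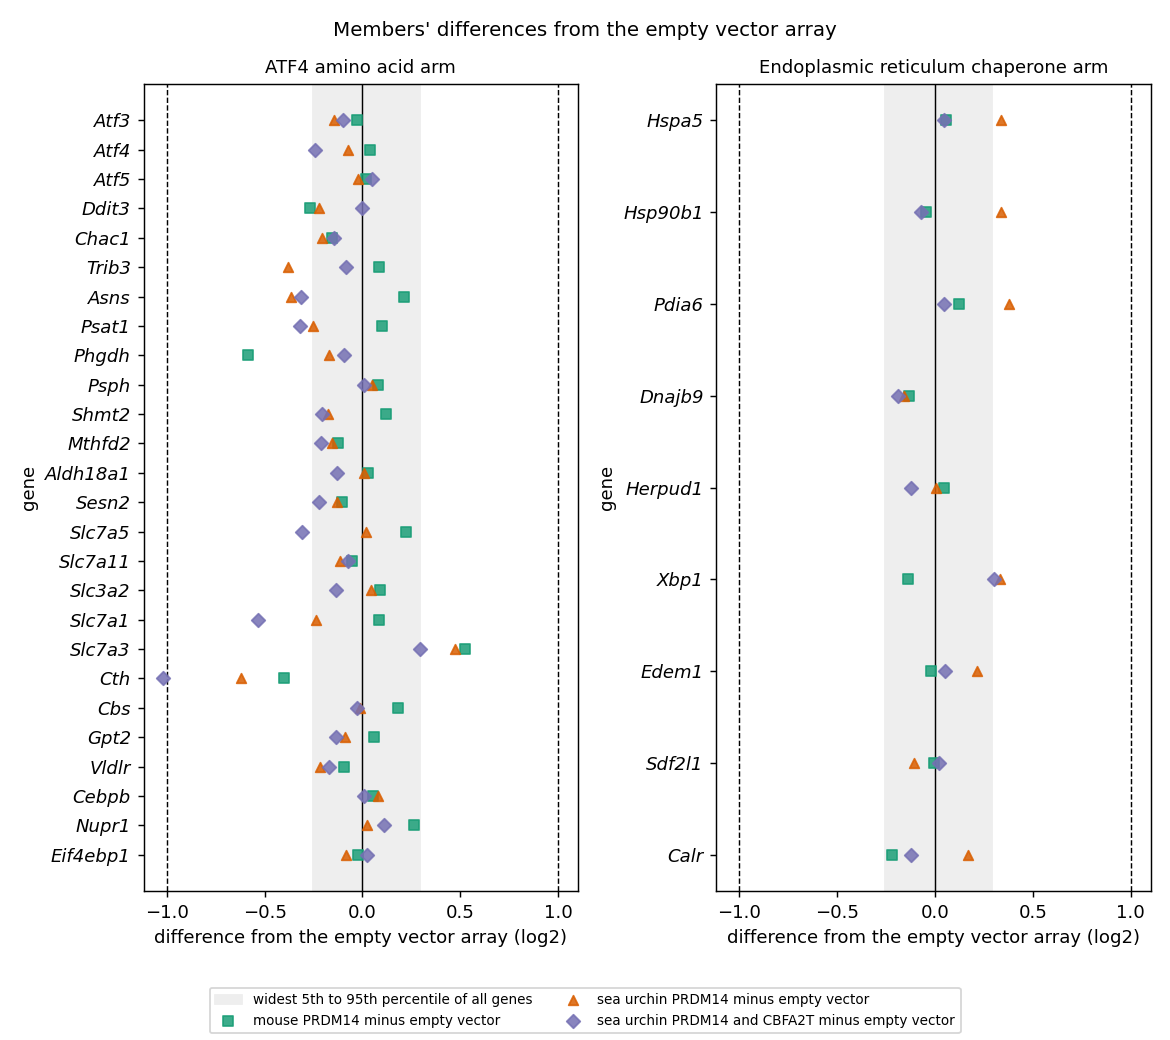
Differences from the empty vector array (log2, x axis) of each member, amino acid arm on the left and chaperone arm on the right, with 1 marker per PRDM14 array; the shaded band is the widest 5th to 95th percentile of all genes, from -0.25 to 0.29, and dashed lines mark 2-fold. Cth with CBFA2T, at -1.02, is the only marker on a dashed line. In the chaperone arm, Hspa5, Hsp90b1, Pdia6 and Xbp1 lie above the band with sea urchin PRDM14 alone. Xbp1 also lies above it with CBFA2T added, at 0.30.

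The chaperone arm was mostly higher, not lower, on the sea urchin PRDM14 array. Hspa5 encodes BiP, the main chaperone of the endoplasmic reticulum and the inhibitor of its stress sensors. Hspa5 was at 6.15 with the empty vector, 6.21 with mouse PRDM14, 6.49 with sea urchin PRDM14 alone and 6.20 with CBFA2T added. The sea urchin PRDM14 array alone was high, 0.34 above the empty vector, and the other arrays lay within 0.06 of one another. Hsp90b1, which encodes the HSP90 paralog GRP94 of this compartment, was at 7.82, 7.78, 8.16 and 7.75 in the same order. Pdia6, a disulfide isomerase gene, was at 7.44, 7.56, 7.82 and 7.49. Calr encodes calreticulin, a lectin chaperone of glycoproteins, and was at 7.91, 7.69, 8.08 and 7.79. All 4 were highest on the sea urchin PRDM14 array.

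These are the 4 genes whose windows hold the stress response element. Their differences from the empty vector with sea urchin PRDM14 were 0.17 to 0.38 (1.12-fold to 1.30-fold), and with CBFA2T against sea urchin PRDM14 alone -0.41 to -0.29. The other 5 measured chaperone genes ranged from -0.16 to 0.33 in the first comparison, with 3 above 0 (Xbp1 at 0.33, Edem1 at 0.21 and Herpud1 at 0.0026), and from -0.16 to 0.13 in the second. This split was made after the values had been seen. Dnajb9 and Edem1, of the 5 without the element, were below the filter value on all arrays, and the 4 with it above. The part of signal level in the split was not tested. In the first comparison, between 194 and 306 of the 12042 genes had a higher difference than Hspa5, Hsp90b1 and Pdia6, and 1539 a higher one than Calr. In the second, 99 to 359 had a lower one than the 4 genes. Both comparisons use the single sea urchin PRDM14 array, so a high value on it makes the first positive and the second negative. With CBFA2T added, the differences of the 4 from the empty vector were -0.12 to 0.05, and with mouse PRDM14 -0.22 to 0.12.

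**Figure D3:**
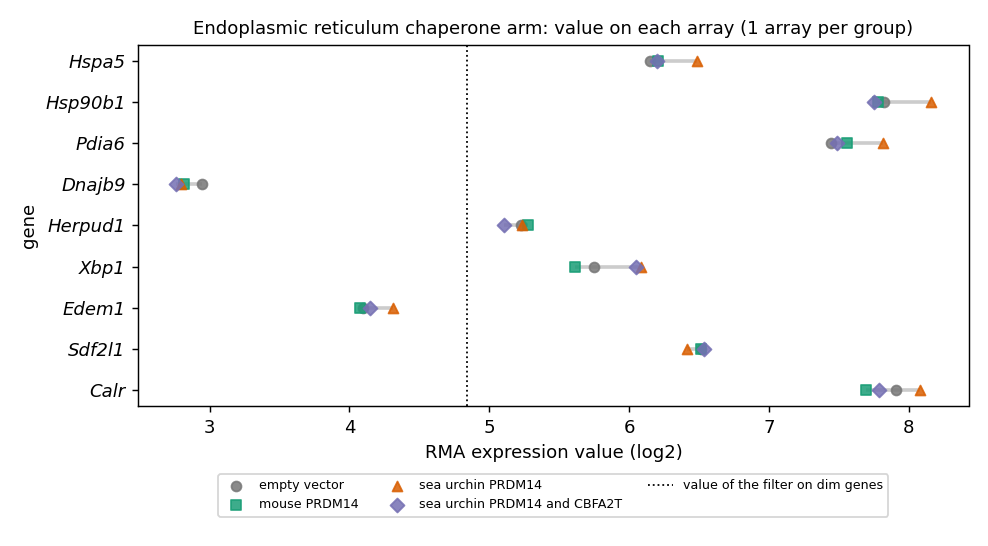
RMA expression values (log2, x axis) of the 9 measured genes of the endoplasmic reticulum chaperone arm on each of 4 arrays, 1 marker per array; the grey line joins the lowest and highest array and the dotted line is the filter value of 4.84. Hspa5, Hsp90b1, Pdia6, Xbp1, Edem1 and Calr are highest with sea urchin PRDM14.

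Xbp1, whose spliced mRNA encodes the transcription factor of the IRE1 branch, had another order. Xbp1 was at 5.75 with the empty vector, 5.61 with mouse PRDM14, 6.08 with sea urchin PRDM14 alone and 6.05 with CBFA2T added. Both sea urchin arrays were high, at 0.33 and 0.30 above the empty vector and 0.47 and 0.44 above mouse PRDM14. Its value does not separate spliced from unspliced mRNA. Xbp1 lies on chromosome 11, whose 1067 genes past the filter had medians of 0.06 and 0.07 above the empty vector on the sea urchin arrays.

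The genes that dispose of misfolded protein or assist chaperones did not stand together. Edem1, which directs glycoproteins to degradation, was dim at 4.08 to 4.31 and highest with sea urchin PRDM14, as was its second probe set, at 3.09 against 2.89 to 3.01. Herpud1, which encodes a membrane component of the degradation machinery, stood at 5.23 on both the empty vector and the sea urchin PRDM14 array, and at 5.10 with CBFA2T. Sdf2l1, which helps BiP, was lowest with sea urchin PRDM14, at 6.41 against 6.51 to 6.54. Dnajb9, a BiP cochaperone gene, was dim at 2.76 to 2.95.

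Over the chaperone arm, 7 of 9 genes were above the empty vector with sea urchin PRDM14 (median 0.21), and 5 of 9 with CBFA2T added, with a median of 0.02. The share of all genes past the filter above 0 was 51.6% in each, so the count with CBFA2T lay close to it. With CBFA2T against sea urchin PRDM14 alone, 8 of 9 were below 0, with a median of -0.16. The other 1 of 9 was above 0, beside 49.9% of all genes past the filter. Over the 7 chaperone genes past the filter the first and last of these medians were 0.33 and -0.29, so their size depends on the dim members. With mouse PRDM14, 3 of 9 were above 0, beside 48.4% of all genes, and the median of the arm was -0.02. Against mouse PRDM14 the medians were 0.26 with sea urchin PRDM14 alone and -0.01 with CBFA2T added. No chaperone gene was 1.5-fold apart in any of these comparisons, nor was any member with CBFA2T against sea urchin PRDM14 alone, where 0.515% of all genes were.

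In the wider lists, other folding genes of the endoplasmic reticulum went with the chaperone arm on that array. All 18 measured were above the empty vector with sea urchin PRDM14 (median 0.21), and 17 of 18 were lower with CBFA2T than with sea urchin PRDM14 alone, with a median of -0.14. With CBFA2T added the median against the empty vector was 0.05, and with mouse PRDM14 -0.04. Cnpy2, a luminal folding factor gene, had the largest difference in the list between the sea urchin arrays. It was at 6.22 with the empty vector, 6.16 with mouse PRDM14, 6.49 with sea urchin PRDM14 and 5.91 with CBFA2T, a difference of -0.58 between the last arrays. Dnajc3, a BiP cochaperone, differed by 0.58 between sea urchin PRDM14 and the empty vector, and Canx, the lectin chaperone calnexin, by 0.56. Dnajc3 and Canx were chosen after their values had been seen.

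Genes of degradation and translocation at the endoplasmic reticulum followed in part. With sea urchin PRDM14, 14 of 19 were above the empty vector (median 0.09), beside 51.6% of all genes past the filter. The translocon channel gene Sec61a1 led them (0.54). Sec61a1 was at 7.82, 7.85, 8.36 and 7.93 with the empty vector, mouse PRDM14, sea urchin PRDM14 and CBFA2T. Over these 3 endoplasmic reticulum lists together, 32 of 46 genes (69.6%) were highest on the sea urchin PRDM14 array, beside 25.0% of all genes past the filter. The lists hold genes of shared regulation, so the 46 genes are not independent, and they were chosen with earlier results of these data known. No gene of these 3 lists was 2-fold apart in the 4 main comparisons.

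**Figure D4:**
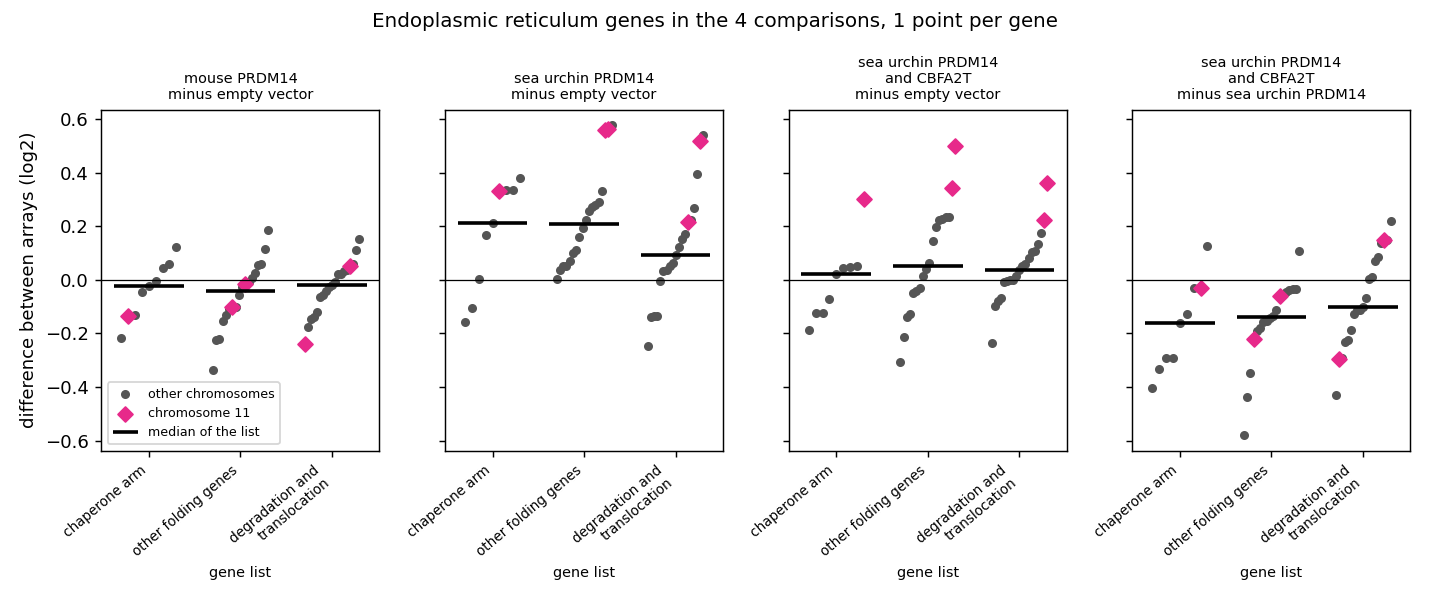
Differences between arrays (log2, y axis) of the 9 chaperone arm genes, 18 other folding genes and 19 degradation and translocation genes in 4 comparisons, 1 point per gene, with black bars for the median of each list and diamonds for genes of chromosome 11. With sea urchin PRDM14 against the empty vector the medians are 0.21, 0.21 and 0.09, and with CBFA2T against sea urchin PRDM14 they are -0.16, -0.14 and -0.10.

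Several of the larger values of these lists belonged to genes of chromosome 11, in a split made after the values had been seen. The 5 genes of the 3 lists on this chromosome are Xbp1, Canx, P4hb, Derl2 and Sec61g. They were above the empty vector on both sea urchin arrays, with medians of 0.52 and 0.34. Over the 1067 genes of the chromosome past the filter the medians were 0.06 and 0.07, with 682 and 706 above 0. Over the 10894 genes of other chromosomes past the filter they were 0.001 and 0.0008, with 5486 and 5471 above 0. The part of the chromosome in the values of the 5 genes was not tested. The other 41 genes of the 3 lists had medians of 0.12 and 0.02, and 34 and 23 of them were above 0. Between the sea urchin arrays the 41 genes had a median of -0.13, with 9 above 0, and the 5 genes one of -0.06. No measured gene of the amino acid arm lies on chromosome 11.

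The sensors upstream were mixed. Of 8 stress sensor genes, 5 were above the empty vector with sea urchin PRDM14 (median 0.02), beside 51.6% of all genes past the filter. Atf6, the sensor that binds the stress response element once cleaved, was at 5.75 with the empty vector, 5.48 with mouse PRDM14, 5.50 with sea urchin PRDM14 alone and 5.15 with CBFA2T added. It was thus highest with the empty vector and lowest with CBFA2T (-0.60). Among 14 measured genes of the eIF2 kinases, phosphatase subunits and eIF2B, the median difference from the empty vector was 0.03 with sea urchin PRDM14 alone and 0.08 with CBFA2T added. Eif2b5, a subunit of the exchange factor eIF2B, had the largest difference there, 0.56 between the sea urchin arrays, from 6.27 to 6.83.

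The 6 lists next to the amino acid arm had medians between -0.20 and 0.05 against the empty vector. Of 8 other reported ATF4 targets measured, 5 were above 0 on each sea urchin array, beside 51.6% of all genes past the filter. Their medians were 0.03 with sea urchin PRDM14 alone and 0.01 with CBFA2T added. The largest difference in that list was in Ddit4, an inhibitor of mTORC1, at -0.41 with CBFA2T added. The 18 cytosolic aminoacyl-tRNA synthetases measured, which charge tRNAs with amino acids, had medians of 0.02 with sea urchin PRDM14 alone and -0.07 with CBFA2T added, led by the isoleucine enzyme Iars (-0.35). Of these 18, 12 were lower with CBFA2T than with sea urchin PRDM14 alone (median -0.08).

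The other 13 amino acid transporters measured had medians of 0.01 with sea urchin PRDM14 alone and -0.02 with CBFA2T added. Among them Slc43a1, a neutral amino acid carrier, differed most (0.47 with CBFA2T). With CBFA2T against sea urchin PRDM14 alone, 7 of the 13 were above 0 (median 0.04), beside 49.9% of all genes. The 9 other serine, glycine and one-carbon enzymes measured had medians of -0.20 with mouse PRDM14, -0.14 with sea urchin PRDM14 alone and -0.06 with CBFA2T added. Gldc, of the glycine cleavage system, was highest with CBFA2T, 0.60 above the empty vector. The 9 enzymes of proline, glutamate and transamination had medians between -0.08 and 0.00 against the empty vector, with the largest difference in the glutamate dehydrogenase gene Glud1 (0.45 with sea urchin PRDM14).

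Cysteine breakdown had a gene with the order of Cth. Cdo1, cysteine dioxygenase, had the largest difference among 14 measured enzymes of methionine, cysteine and glutathione. Cdo1 was at 5.61 with the empty vector, 5.18 with mouse PRDM14, 5.05 with sea urchin PRDM14 alone. With CBFA2T added it lay another 0.05 lower. Every array with a PRDM14 lay below the empty vector, by 0.43 or more, as every such array lay by 0.40 or more for Cth. The list as a whole had medians of -0.10, -0.07 and -0.01 in these comparisons.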

How the data were processed

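Total RNA of 4 cell samples was labelled with biotin and hybridised to GeneAtlas arrays, 1 per group. The authors deposited log2 values from RMA, a method that subtracts background, forces 1 distribution on the arrays and summarises probes (per the submitters' processing notes, which name the method alone). Its version, its build and the set of arrays normalized jointly were not stated in any source used here. Array medians were 4.54 to 4.55, and a shift common to most genes would be hidden.

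Of 41345 probe sets, 23521 were paired with 1 gene by the platform annotation, 1814 with several and 16010 with none. A gene took its probe set with the highest mean. A difference of at least 2-fold between arrays was a call. The members and all lists were chosen with earlier results of these data known. The arms' members are all accounted for. Of each pathway list, genes past 2-fold in a main comparison were named, or the gene with the largest difference. Promoter windows were to be shown for the members with the largest differences, and any other gene is said to be chosen after its values were seen. In the lists, 5 older symbols were updated. The call rule was tested on simulated data.

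The alternatives tried were no filter, a 1.5-fold threshold, a filter at 5.65 (the 75th percentile), cyclic loess, the mean of a gene's probe sets and probe sets shared by several genes. The members past the filter only and the split by chromosome 11 were added after the data were seen. Promoter sequences and chromosomes came from RefSeq (GRCm38.p6), with 33 of 37 members matched to a window. The tools were limma 3.58.1 in R 4.3.3, and Python 3.11.15 with pandas 2.3.3, numpy 2.4.6 and matplotlib 3.10.9. A second strip named in the series' design was not used here.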

Additional observations from a re-analysis of the deposited data

How the results depend on the processing

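Of the counts and arm medians recomputed under the alternatives, 128 stayed the same by the rules used and 6 moved, all at the 1.5-fold threshold. The rules were within 1.5 times for a count and within its interval for a median. That interval was a binomial one over the arm's own genes, and it is wide for the few chaperone genes. Some alternatives, such as no filter on the background, could not change an arm median. The number that stayed the same is therefore no measure of stability. At 1.5-fold, 55 genes were called for mouse PRDM14, 60 for sea urchin PRDM14 and 99 for sea urchin PRDM14 and CBFA2T, each against the empty vector, and 62 for CBFA2T against sea urchin PRDM14 alone. Called members became 1 in the comparison of sea urchin PRDM14 with the empty vector and 2 with CBFA2T against mouse PRDM14. The arm medians kept their sign in all 6 alternatives, except those of the chaperone arm with CBFA2T against the empty vector (-0.01 to 0.03) and against mouse PRDM14 (-0.02 to 0.008). The chaperone median for sea urchin PRDM14 ranged from 0.19 to 0.33, and that for CBFA2T against sea urchin PRDM14 from -0.29 to -0.14. Cyclic loess moved no member by more than 0.04. It turned the sign of 1 near-zero member in each of 3 comparisons (Slc7a5, Ddit3 and Chac1). Cth with CBFA2T stayed past 2-fold under cyclic loess. Cth has 1 probe set, so the other alternatives could not change its value of -1.02. No paired analysis was possible because each group has 1 array, and for the same reason no array could be left out. Of the other values, 426 stayed the same, 4 moved and none turned from a called value to the opposite sign.

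With 1 array per group, the spread between cultures is unknown, and a difference on 1 array cannot be told apart from chance in that culture or array. Dim genes are pulled toward no difference by background, which limits what can be said of Ddit3, Slc7a11, Slc7a3, Vldlr, Dnajb9 and Edem1. Mir704 shares the probe set of Pdia4.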

Other observations

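Stress genes outside the endoplasmic reticulum were distributed otherwise. Of 8 measured targets of NRF2, the factor of the oxidative stress response, all 8 were below the empty vector with mouse PRDM14, with a median of -0.20. Txnrd1, the cytosolic thioredoxin reductase, was at 8.30 with the empty vector, 7.72 with mouse PRDM14, 8.06 with sea urchin PRDM14 alone and 7.98 with CBFA2T added, and so was lowest with mouse PRDM14 by 0.27. On each of the sea urchin arrays 6 of 8 were below 0, with medians of -0.07 and -0.10. Over all genes past the filter 51.5% were below 0 with mouse PRDM14, and 48.4% on each sea urchin array. No gene of this list was 2-fold apart in these comparisons, and the comparisons share the empty vector array.

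The cytosolic and mitochondrial heat shock genes did not go with the endoplasmic reticulum chaperones on the sea urchin PRDM14 array. Of 9 measured, 7 were below the empty vector there (median -0.07), beside 48.4% of all genes past the filter. With CBFA2T, 8 of 9 were higher than with sea urchin PRDM14 alone (median 0.11), beside 49.9% of all genes. Both comparisons use the sea urchin PRDM14 array. Hsph1, which encodes a large HSP70 relative, was at 6.70 with the empty vector, 6.51 with mouse PRDM14, 6.90 with sea urchin PRDM14 alone and 7.23 with CBFA2T added. It was highest with CBFA2T, 0.53 above the empty vector.

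Within the amino acid arm, the 7 measured genes whose promoter window holds the C/EBP-ATF response element were set beside the 15 whose window does not, a split made after the values had been seen. With sea urchin PRDM14 against the empty vector, 6 of 7 and 11 of 15 were below 0, with medians of -0.21 and -0.09. Over all genes past the filter 48.4% were below 0. With CBFA2T against sea urchin PRDM14 alone, all 7 genes with the element were above 0, and 3 of the 15 without it were. In that comparison 49.9% of all genes were above 0, and their SD was 0.18. Trib3 was at 0.30, and the other genes with the element were only at 0.04 to 0.08. Slc7a11 and Vldlr among the 7 were below the filter value on all arrays, and both comparisons use the sea urchin PRDM14 array.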
